A study of Mus musculus with 32 samples.

Results

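The glucocorticoid receptor gene Nr3c1 and 9 genes known as its targets (Fkbp5, Tsc22d3, Zbtb16, Klf9, Sgk1, Dusp1, Errfi1, Mfsd2a and Fam107a) were followed through 32 RNA-seq libraries of mouse cell lines. They were taken by gene symbol, with no threshold on the values, and all 10 were found among the 27843 genes of the AML12 table and among the 55414 genes of the HL-1 table. AML12 is a hepatocyte line and HL-1 a cardiomyocyte line, each sampled in 4 groups of 4 libraries. AML12 control cells and AML12 cells given what the labels call DEX were sampled at 17 h and at 25 h. HL-1 cells were sampled at 16 h and 28 h in medium that came from AML12 cultures in every group, so the HL-1 controls carry AML12-derived medium too. The HL-1 control medium came from cultures without DEX synchronization and the conditioned medium, named CM, from cultures with it. The sample descriptions and column headers write these hours with the prefix ZT, as in ZT17 for AML12 and ZT16 for HL-1. The labels state neither the dose and duration of DEX nor how long HL-1 cells stayed in the medium. Separate cultures are not named for the 4 libraries within a group. Every p-value therefore measures the spread between these samples alone, and that spread may be technical.

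The glucocorticoid receptor is a transcription factor that waits in the cytoplasm in a complex with Hsp90 and its partners, binds its hormone, moves to the nucleus and turns genes on or off from DNA elements built on the hexamer AGAACA. Its targets include brakes on the receptor itself, other transcription factors, and inhibitors of kinase signalling. In liver the receptor drives glucose and lipid metabolism, and in many tissues hormone pulses through it set peripheral circadian clocks.

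AML12 libraries had totals of 15.0 M to 17.5 M counts, HL-1 libraries 15.7 M to 19.3 M. In AML12 5 of 9 hepatocyte markers reached 10 CPM, among them Hnf4a (205 CPM) and Apob (154 CPM), while Alb averaged 1.43 CPM over 16 libraries. CPM is a gene's count scaled to a common library total, with library sizes adjusted by TMM. In HL-1 4 of 9 cardiomyocyte markers reached 10 CPM, among them Gja1 (466 CPM) and Des (524 CPM). The defining heart genes Myh6, Nppa, Actc1 and Tbx5 had at most 5 counts each over 16 libraries, and all 6 fibroblast markers reached 10 CPM. Pairs of libraries were compared by chi-square over genes, divided by its degrees of freedom. DEX replicate 2 at 17 h in AML12 gave 12.4 to 16.5 with each of the other 3, which gave 2.27 to 3.73 among themselves. HL-1 control replicate 3 at 16 h gave 7.35 to 15.0, with 2.59 to 5.13 among the other 3. Most results of the 10 genes that rest on either library are given with and without it, singly or as a range.

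For 8 of the 10 genes, windows of the RefSeq promoter table of GRCm38.p6 were examined, 18 windows of 250 bases upstream of a transcript start. Zbtb16 had no entry in that table, and windows of Nr3c1 were left out of this search. The hexamer AGAACA was searched on both strands (its complement reads TGTTCT). It was present in 6 of these 18 windows, belonging to Tsc22d3, Sgk1 and Fam107a, and in 16.1% of all 32851 windows of the table. The windows are not independent. Those of Fam107a at chr14:8309778-8310027 and chr14:8309780-8310029 overlap and hold the same hexamers, and Sgk1 has several windows. These shares were therefore not tested against each other. The palindrome of AGAACA, any 3 bases and TGTTCT was present in 3 windows of the table (0.00913%), and 1 of them is a window of Sgk1 on the plus strand at chr10:21993640-21993889, outside annotated exons. That window is shown because Sgk1 had the highest fitted rise among the targets whose controls were above 0, and the Fkbp5 window (minus strand, chr17:28486150-28486399) is shown beside it because it holds no AGAACA hexamer while Fkbp5 also rose. Capitals mark the hexamer on either strand.
Sgk1: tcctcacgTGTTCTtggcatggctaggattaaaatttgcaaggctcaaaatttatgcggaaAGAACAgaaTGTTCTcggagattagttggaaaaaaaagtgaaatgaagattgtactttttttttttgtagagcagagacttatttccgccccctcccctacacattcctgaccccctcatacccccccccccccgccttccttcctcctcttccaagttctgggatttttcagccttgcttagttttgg
Fkbp5: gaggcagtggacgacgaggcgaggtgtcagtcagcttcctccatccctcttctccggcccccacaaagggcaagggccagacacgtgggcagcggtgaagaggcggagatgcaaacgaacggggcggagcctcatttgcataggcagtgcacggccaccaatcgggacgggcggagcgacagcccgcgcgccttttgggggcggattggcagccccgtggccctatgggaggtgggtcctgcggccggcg
In the Sgk1 window the hexamers begin 242, 189 and 180 bases upstream of the start, and the last pair forms the palindrome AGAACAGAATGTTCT. The E-box CACGTG, the element of clock activators, was present in 3 of the 18 windows and in 6.02% of all windows. One of the 3 is this Sgk1 window, where it begins 246 bases upstream and shares 2 bases with the first hexamer, and another is the Fkbp5 window. These matches describe letters in a window and do not show binding.

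DEX and control AML12 cells differed in all 10 genes at 17 h. The receptor transcript was lower in DEX cells and the 9 target transcripts were higher, and for each gene the 4 DEX libraries lay wholly outside the range of the 4 controls. All 10 were called, meaning a Benjamini-Hochberg adjusted p under 0.05 over 14114 genes in edgeR's quasi-likelihood test. In the same comparison 38.4% of all tested genes were called, 20.5% as higher and 17.9% as lower in DEX cells. Of those calls 53.4% were higher with TMM scaling and 43.8% with total counts. In bulk RNA, fewer cells expressing a gene and less RNA of it per cell cannot be told apart. Without the DEX replicate 2 that stood apart, all 10 were still called. The log2 fold changes of genes for which it is not given below were then 1.71 for Tsc22d3, 1.17 for Klf9, 1.21 for Dusp1, 2.01 for Fam107a and 1.14 for Mfsd2a.

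Nr3c1 itself (chromosome 18, 39410545 to 39519421, minus strand, GRCm38) stood at 183, 183, 185 and 191 CPM in controls and at 153, 160.4, 148 and 155 CPM in DEX cells at 17 h. Every DEX library was below every control. The log2 fold change was -0.27 ± 0.04 (SE), an adjusted p of 4.41e-06 in edgeR, or 17.0% less with a 95% interval of 12.2 to 21.4% less. Without DEX replicate 2 it was -0.29.

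Fkbp5, which encodes an Hsp90 co-chaperone that lowers the receptor's affinity for hormone (chromosome 17, 28399094 to 28517527, minus strand), stood at 104, 107, 103 and 106 CPM in controls. In DEX cells it stood at 374, 314, 375 and 374 CPM. The groups were far apart, and replicate 2 was the low one of the DEX libraries. The log2 fold change was 1.77 ± 0.06, or 3.42-fold (adjusted p = 1.40e-17, edgeR), and 1.83 without that library.

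Among the transcription factor genes, Zbtb16 had the plainest pattern. It encodes a BTB zinc finger protein (chromosome 9, 48654297 to 48836222, minus strand) and had 0 counts in all 4 controls at 17 h. In DEX cells it stood at 13.7, 12.0, 13.1 and 13.8 CPM, 853 counts in all. Taking 3 counts over all controls as the floor, that is at least 288-fold higher. Zbtb16 passed the low-count filter only through this group, so its call was bound to follow. Klf9, a Krüppel-like repressor (chromosome 19, 23141226 to 23168134, plus strand), stood at 46.1, 45.6, 45.1 and 44.5 CPM in controls and 105, 119, 101 and 101 CPM in DEX cells. Its groups did not overlap, and its log2 fold change was 1.23 ± 0.05 (adjusted p = 9.97e-16, edgeR).

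The signalling genes rose by different amounts. Sgk1, a kinase that acts on ion channels and transporters (chromosome 10, 21882184 to 21999903, plus strand), stood at 62.9, 54.7, 62.0 and 50.9 CPM in controls and at 290.2, 314, 265 and 278 CPM in DEX cells. The lowest DEX library was far above the highest control, and the log2 fold change of 2.32 ± 0.07 (4.98-fold, adjusted p = 2.11e-18, edgeR) was 2.27 without DEX replicate 2. Tsc22d3 encodes a leucine zipper protein (GILZ) that restrains inflammatory transcription factors (chromosome X, 140539528 to 140600659, minus strand). It stood at 33.9, 37.1, 33.6 and 37.7 CPM in controls and at 120.2, 122, 114 and 117 CPM in DEX cells, a log2 fold change of 1.73 ± 0.05 (adjusted p = 1.82e-18, edgeR). Dusp1, a phosphatase of MAP kinases (chromosome 17, 26505590 to 26562128, minus strand), went from 30.0 ± 1.92 (SD, n = 4) to 68.0 ± 3.76 CPM, a log2 fold change of 1.18 ± 0.06. Its exons overlap those of Ergic1 on the other strand, and since the strand setting of the counting is not known, reads of the pair cannot be told apart.

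Errfi1 moved least of the 9 targets. It encodes an inhibitor of the EGF receptor kinases (chromosome 4, 150853919 to 150868892, plus strand) and stood at 30.3, 28.3, 31.4 and 28.5 CPM in controls against 34.6, 39.1, 33.9 and 34.8 CPM in DEX cells. The gap between the groups was narrow, and replicate 2 was the high one. The log2 fold change was 0.26 ± 0.06 (adjusted p = 0.00209, edgeR) and 0.21 (adjusted p = 0.00865) without that library.

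Low-level targets rose too. Fam107a, which encodes an actin-associated protein raised by stress hormones (chromosome 14, 8296274 to 8318023, minus strand), stood at 2.50, 2.27, 2.63 and 2.38 CPM in controls and at 10.8, 12.2, 9.27 and 9.81 CPM in DEX cells. The groups were well separated, with a log2 fold change of 2.10 ± 0.14 (4.28-fold, adjusted p = 8.65e-12, edgeR). Mfsd2a, a transporter of lysophosphatidylcholine that carries omega-3 fatty acids (chromosome 4, 122946850 to 122961188, minus strand), had 0.991 ± 0.171 CPM in controls and 2.27 ± 0.371 CPM in DEX cells. Those means rest on 65 and 147 counts over 4 libraries, and the log2 fold change was 1.19 ± 0.20 (adjusted p = 4.49e-05, edgeR).

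**Figure D1:**
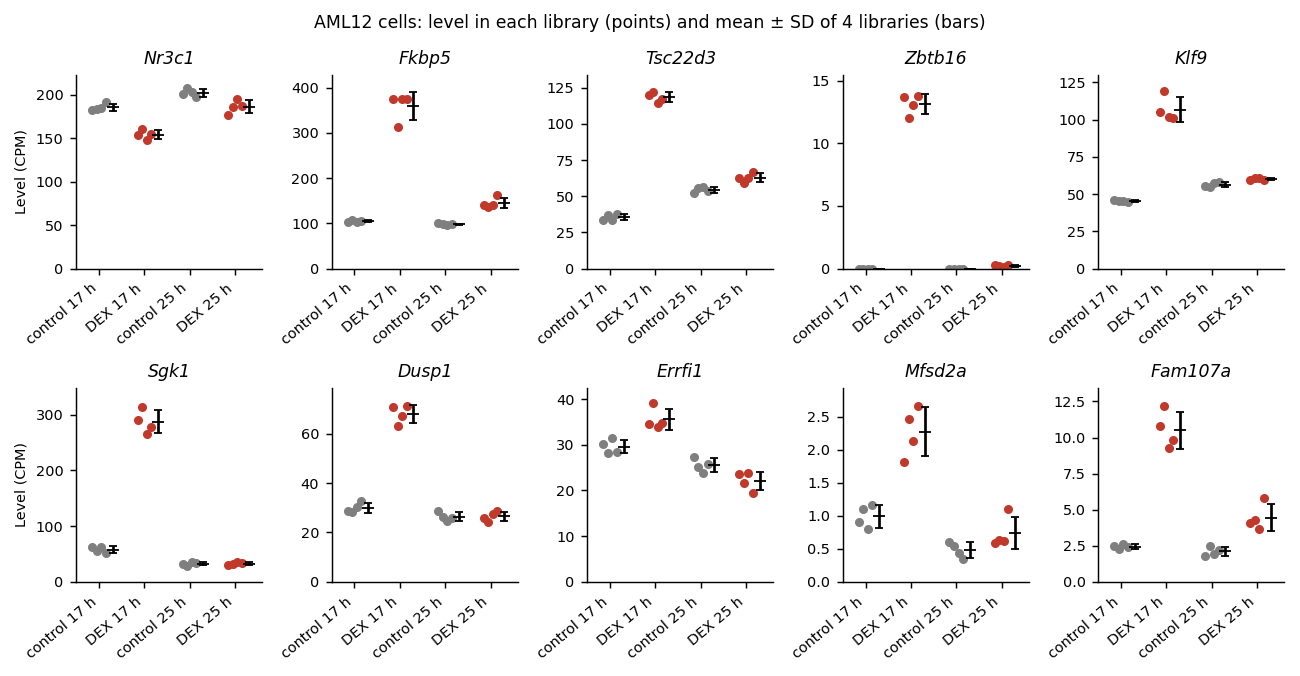
Level of each gene in CPM (vertical axes, from 0) in the 16 AML12 libraries, with points for libraries and bars for the mean ± SD of 4. At 17 h the DEX points lie above the controls for the 9 targets and below them for Nr3c1. At 25 h Sgk1, Dusp1 and Mfsd2a overlap their controls.

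At 25 h most of these differences were small, and the genes parted ways. Of the 10 genes, 6 were called: Fkbp5, Tsc22d3, Zbtb16 and Fam107a were higher in DEX cells, and Nr3c1 and Errfi1 were lower. Among all tested genes 11.7% were called at this time, 6.79% higher and 4.96% lower. The hepatocyte marker sum was lower in DEX cells at 25 h (4750 to 5063 against 5128 to 5281 CPM) and the fibroblast marker sum higher (2371 to 2534 against 2182 to 2316 CPM), without overlap. The cardiomyocyte marker sum was likewise higher without overlap (105 to 117 against 91.0 to 102 CPM). The AML12 fibroblast sum is almost all Vim (mean 2377 CPM), with Col1a1 at 3.99 CPM and Col1a2 and Dcn at 2 counts each. The AML12 cardiomyocyte sum is mostly Tnnt2, Gata4 and Gja1, with 2 counts each for Myh6 and Nppa. At 17 h the ranges of these 3 sums overlapped between DEX and control cells. The part of these shifts in the values at 25 h was not tested.

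Fkbp5 kept the clearest difference. It stood at 99.6, 98.2, 96.9 and 97.7 CPM in 25 h controls and at 140.2, 136, 141 and 162 CPM in DEX cells. All DEX libraries were above all controls, with replicate 4 the highest, and the log2 fold change was 0.56 ± 0.06 (adjusted p = 2.34e-07, edgeR). Fam107a stood at 1.82, 2.49, 1.91 and 2.20 CPM in controls and 4.05, 4.27, 3.66 and 5.80 CPM in DEX cells, again without overlap (log2 fold change 1.07 ± 0.16, adjusted p = 3.27e-05, edgeR). Zbtb16 had 0 counts in the controls and 0.293, 0.173, 0.124 and 0.305 CPM in DEX cells. These are 15 counts in all, at least 4.84-fold above the floor of 3 counts over the group (adjusted p = 0.00137, edgeR). Zbtb16 entered this test only through the 17 h DEX group, and in a fit of only the 25 h libraries it was under the filter. Its call at 25 h therefore rests on these few counts.

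Tsc22d3 showed a small rise on a higher control level. Its 25 h controls stood at 52.2, 55.6, 56.6 and 53.5 CPM and its DEX cells at 62.3, 59.5, 62.4 and 66.7 CPM, which do not overlap (log2 fold change 0.20 ± 0.05, adjusted p = 0.00531, edgeR). Nr3c1 stood at 200.4, 208, 203 and 197 CPM in controls and at 176, 185, 195 and 187 CPM in DEX cells. The receptor was thus lower by 0.12 ± 0.04 on the log2 scale (adjusted p = 0.0406, edgeR), a call that was lost without control replicate 2 (adjusted p = 0.0752), control replicate 3 (0.0511) or DEX replicate 1 (0.0795), with total counts (0.0530) and without the low-count filter (0.132). Errfi1 stood at 27.4, 25.2, 23.9 and 25.8 CPM in controls and 23.5, 21.7, 23.7 and 19.4 CPM in DEX cells, with the closest pair almost level. Its log2 fold change of -0.21 ± 0.07 (adjusted p = 0.0472, edgeR) passed the threshold narrowly. It did not pass without control replicate 1 (adjusted p = 0.115), 2 (0.0617) or 4 (0.0763), or without DEX replicate 2 (0.0737) or 4 (0.161). Nor did it pass with total counts (0.0519), limma-voom (0.0517) or the replicate number as a block (0.0526).

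Sgk1, the kinase with the 4.98-fold rise at 17 h, stood at 32.3, 28.9, 35.1 and 33.4 CPM in 25 h controls and at 29.3, 31.8, 34.7 and 33.8 CPM in DEX cells. The groups overlapped fully, and the difference was -0.158% with a 95% interval from -10.7 to 11.6%. Dusp1 overlapped as well, at 26.3 ± 1.82 against 26.5 ± 1.86 CPM, a difference of 0.579% with an interval from -8.51 to 10.6%. Klf9 stood at 55.1, 54.5, 57.3 and 58.3 CPM in controls and 59.3, 60.7, 60.6 and 59.6 CPM in DEX cells. Its DEX libraries were all above its controls, but the difference of 6.60% (95% interval -0.663 to 14.4%) was not called (adjusted p = 0.266, edgeR). For Mfsd2a, with 31 and 49 counts per group, the log2 fold change was 0.61 ± 0.30 (adjusted p = 0.233, edgeR), and 1 DEX library at 1.10 CPM stood above the other 3 at 0.587 to 0.635 CPM. Without that library, replicate 4, the log2 fold change was 0.35 (adjusted p = 0.676).

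The DEX effect was then compared between the times, as the 25 h log2 fold change minus that at 17 h. It was smaller at 25 h for 7 of the 10 genes, where 16.2% of all tested genes were called, 8.27% below 0 and 7.91% above. That split depends on the scaling, since 48.9% of the called genes were above 0 with TMM and 62.2% with total counts. The difference was widest for the kinase Sgk1 (-2.32 ± 0.10, adjusted p = 4.35e-14, edgeR), followed by Tsc22d3 (-1.53 ± 0.07), Fkbp5 (-1.21 ± 0.08), Dusp1 (-1.17 ± 0.09) and Klf9 (-1.14 ± 0.07). Fam107a differed by -1.02 ± 0.22 (adjusted p = 0.00156, edgeR). For Errfi1, whose DEX effect was above 0 at 17 h and below 0 at 25 h, the difference was -0.48 ± 0.09 (adjusted p = 0.000810, edgeR). The receptor's own fall did not differ between the times at this threshold (0.15 ± 0.05, adjusted p = 0.0670, edgeR), although it was called without DEX 17 h replicate 2 (0.16, adjusted p = 0.0281) or DEX 25 h replicate 1 (0.17, adjusted p = 0.0413). Mfsd2a was not called (-0.58 ± 0.38, adjusted p = 0.355, edgeR). Without DEX 17 h replicate 2 the other differences were -2.28 for Sgk1, -1.52 for Tsc22d3, -1.28 for Fkbp5, -1.21 for Dusp1, -1.09 for Klf9, -0.96 for Fam107a, -0.43 for Errfi1 and -0.54 for Mfsd2a, with the same 7 genes called. For Zbtb16, with 0 counts in both control groups, the difference of effects could not be fitted.

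**Figure D2:**
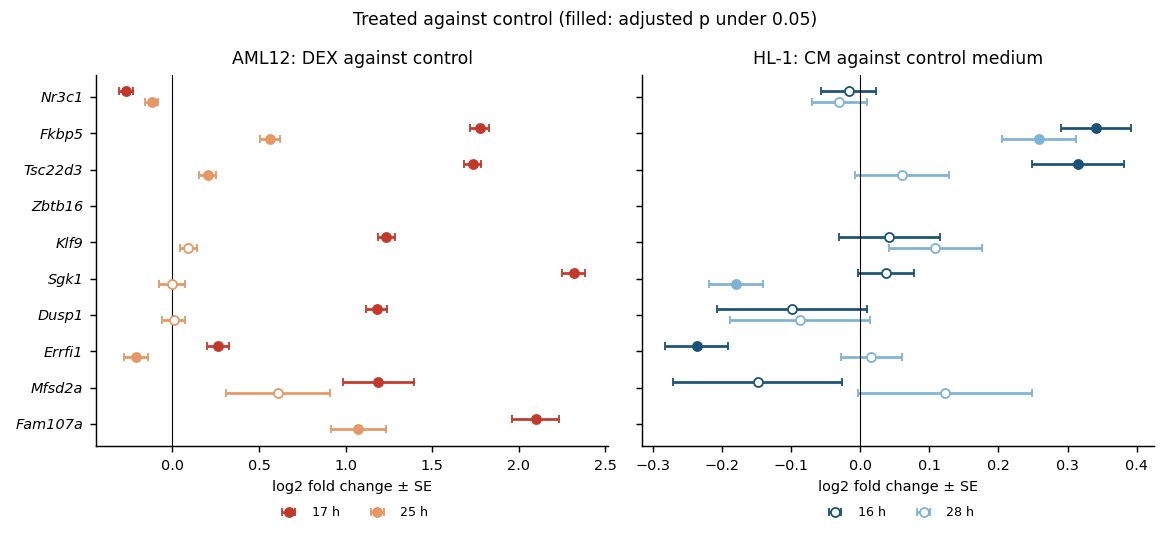
Log2 fold change ± SE of treated against control cells for each gene, at both times, in AML12 (left) and HL-1 (right, on a narrower axis), with filled points for an adjusted p under 0.05. In AML12 the 17 h points reach 2.32 for Sgk1 while its 25 h point lies at 0, and in HL-1 the widest point is Fkbp5 at 0.34; Zbtb16 is left out because its controls had 0 counts or too few to be tested.

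Control cells were not constant between the 2 times, and this sets the level against which the DEX effects were read. In AML12 controls 7 of the 10 genes were called between 25 h and 17 h, where 43.5% of all tested genes were called, 22.1% higher and 21.4% lower at 25 h. Of those calls 50.8% were higher with TMM scaling and 39.5% with total counts. Tsc22d3 rose by 0.61 ± 0.05 on the log2 scale (from 35.6 ± 2.12 to 54.5 ± 1.98 CPM, adjusted p = 1.23e-09, edgeR), Klf9 rose by 0.31 ± 0.05 and Nr3c1 rose by 0.12 ± 0.04 (adjusted p = 0.0106, edgeR). Sgk1 fell by 0.83 ± 0.07, from 57.6 ± 5.77 to 32.4 ± 2.64 CPM (adjusted p = 4.28e-09, edgeR), and the lowest 17 h control of 50.9 CPM was above the highest 25 h control of 35.1 CPM. Mfsd2a fell by 1.04 ± 0.28, Errfi1 by 0.21 ± 0.07 and Dusp1 by 0.19 ± 0.07 (adjusted p = 0.0219, edgeR). The groups of Dusp1 overlap, and its call was lost without 17 h replicate 3 or 4 or without 25 h replicate 2, 3 or 4 (adjusted p from 0.0506 to 0.0996). That of Errfi1 was lost without replicate 3 of either time (adjusted p up to 0.0543). The call of Nr3c1 was lost with total counts (0.08, adjusted p = 0.0998) and without the low-count filter (0.11, adjusted p = 0.0751). Fkbp5 (-0.10 ± 0.06, adjusted p = 0.163) and Fam107a (-0.21 ± 0.18, adjusted p = 0.349) were not called by edgeR, and Zbtb16 had 0 counts at both times. Marker sums also moved between the times without overlap. The hepatocyte sum in controls, mostly Krt8 and Krt18, was 4165 to 4316 CPM at 17 h and 5128 to 5281 CPM at 25 h. In DEX cells it was 3916 to 4287 CPM at 17 h and 4750 to 5063 CPM at 25 h. The immune sum in controls, almost all of it Cd68, was 3.94 to 4.28 CPM at 17 h and 2.28 to 2.89 CPM at 25 h. Their part in the time differences was not tested.

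In DEX cells all 10 genes differed between the times, where 56% of all tested genes were called, 27.8% higher and 28.2% lower at 25 h. The receptor was higher at 25 h (0.27 ± 0.04, adjusted p = 1.98e-06, edgeR) and the 9 targets were lower. As at 17 h, the call of Zbtb16 was bound to follow from the group that carried it past the filter. Without DEX 17 h replicate 2 all 10 were still called, with log2 fold changes from -5.87 for Zbtb16 and -3.11 for Sgk1 to -0.65 for Errfi1 and 0.29 for Nr3c1. Sgk1 was lower by 3.15 ± 0.07 on the log2 scale, dropping from 287 ± 20.7 to 32.4 ± 2.37 CPM. Zbtb16 went from 853 to 15 counts over the 4 libraries, a log2 fold change of -5.82 ± 0.19. The log2 fold change was -1.36 ± 0.06 for Dusp1, -1.31 ± 0.05 for Fkbp5, -1.24 ± 0.12 for Fam107a and -1.62 ± 0.22 for Mfsd2a. It was smaller for Tsc22d3 (-0.92 ± 0.05), Klf9 (-0.83 ± 0.05) and Errfi1 (-0.69 ± 0.07).

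These changes gave the groups a distinct order for each gene. For all 9 targets DEX cells at 17 h were highest, above every library of the next group. For Fkbp5, Zbtb16 and Fam107a the next group was DEX at 25 h, clear of both controls. For Tsc22d3 and Klf9 the order went on with DEX at 25 h, control at 25 h and control at 17 h, with no overlap between neighbours. For Sgk1 the 17 h controls came next, and both 25 h groups overlapped at the bottom. For Errfi1 the order was DEX 17 h, control 17 h, control 25 h and DEX 25 h, with each range apart from its neighbour. For Dusp1 and Mfsd2a the ranges of neighbours among the 3 lower groups overlapped. Nr3c1 had the reverse ends: control at 25 h was highest and DEX at 17 h lowest, with DEX at 25 h and control at 17 h overlapping between them.

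**Figure D3:**
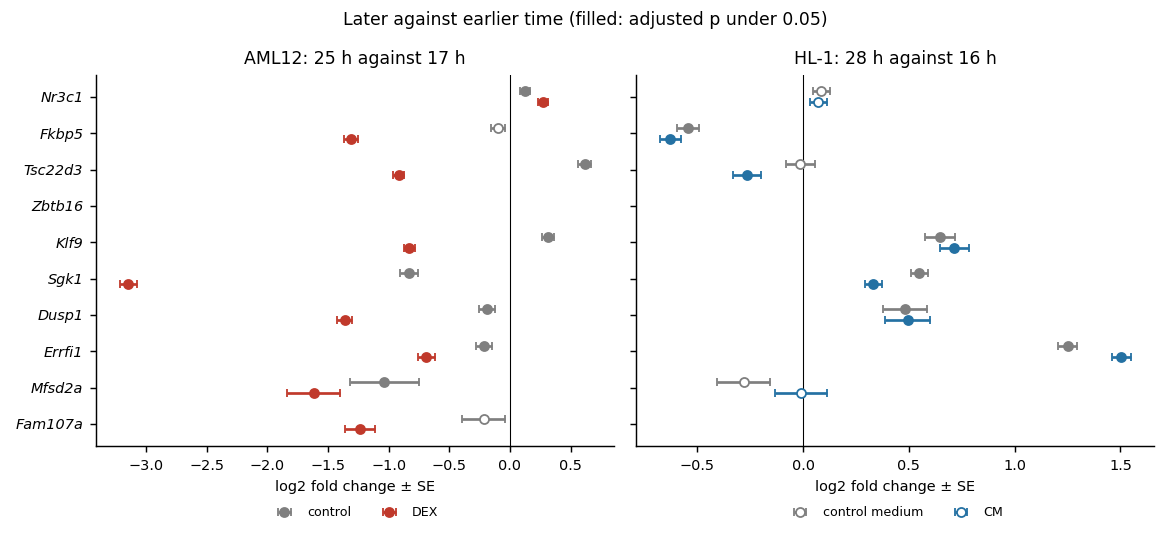
Log2 fold change ± SE of the later against the earlier time for each gene, within control and treated cells, in AML12 (left) and HL-1 (right), with filled points for an adjusted p under 0.05. In AML12 DEX cells every plotted target lies below 0 and Sgk1 reaches -3.15, whereas in HL-1 Errfi1 lies at 1.25 in control medium and further right in CM; Zbtb16 is not drawn.

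In HL-1 cells the receptor gene was expressed at a level that did not separate any of the 4 groups. Nr3c1 stood at 163, 154, 144 and 157 CPM in control medium and 154, 149, 158 and 149 CPM in CM at 16 h. At 28 h it stood at 166, 162, 169.6 and 158 CPM in control medium and 165, 162, 156 and 158 CPM in CM. All neighbouring ranges overlapped. The CM difference was -1.13% at 16 h (95% interval -6.59 to 4.65%) and -2.07% at 28 h (-7.46 to 3.63%).

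Conditioned medium moved 3 of the 8 genes that could be tested in HL-1 at 16 h, in a comparison where 2.03% of all 14450 tested genes were called, 0.83% higher and 1.2% lower in CM. Fkbp5, the co-chaperone gene, stood at 62.7, 67.6, 68.6 and 68.8 CPM in control medium and at 81.6, 86.1, 79.6 and 91.8 CPM in CM. All CM libraries were above all controls, and the log2 fold change was 0.34 ± 0.05, or 1.27-fold (adjusted p = 0.000161, edgeR). Tsc22d3 stood at 31.6, 36.0, 31.0 and 36.3 CPM in control medium and at 39.0, 43.7, 43.0 and 42.1 CPM in CM, also without overlap (0.31 ± 0.07, adjusted p = 0.00827, edgeR). Errfi1 was lower in CM, with 238, 253, 280.0 and 255 CPM against 223, 222, 207 and 219 CPM (-0.24 ± 0.05, adjusted p = 0.00330, edgeR). Without the control replicate 3 that stood apart, the log2 fold changes were 0.34 for Fkbp5 (adjusted p = 0.000306), 0.27 for Tsc22d3 (adjusted p = 0.0400) and -0.20 for Errfi1 (adjusted p = 0.0115), all in edgeR.

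The other 5 tested genes overlapped between the media at 16 h. Sgk1 stood at 100.1, 105, 92.8 and 104 CPM in control medium and 107, 102, 101 and 101 CPM in CM, a difference of 2.66% (95% interval -3.09 to 8.76%). Klf9 differed by 2.98% (-7.25 to 14.3%), Dusp1 by -6.61% (-20.1 to 9.13%) and Mfsd2a by -9.78% (-24.2 to 7.37%). Several measures moved with the medium at this time. The CM libraries were deeper, at 17.9 M to 19.3 M counts against 15.7 M to 17.4 M. The sum of 3 immune markers was higher in CM (2.45 to 2.72 against 1.38 to 1.76 CPM), almost all of it Cd68, with Adgre1 at 0 counts and Ptprc at 3 counts over the 16 HL-1 libraries. The part of depth and of this sum in the result was not tested.

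At 28 h Fkbp5 was again higher in CM, at 56.0, 56.9, 55.7 and 50.9 CPM against 44.5, 44.4, 48.0 and 46.5 CPM in control medium. The groups did not overlap, and the log2 fold change was 0.26 ± 0.05 (adjusted p = 0.00676, edgeR). Sgk1 was lower in CM, at 129, 131, 133 and 126 CPM against 149, 144, 150.1 and 144 CPM, again without overlap (-0.18 ± 0.04, adjusted p = 0.0108, edgeR). Leaving out control replicate 1 took the adjusted p of Sgk1 to 0.0507. These 2 of 8 stand beside 1.92% of all tested genes called, 0.706% higher and 1.22% lower in CM. CM libraries were deeper here too (17.5 M to 19.2 M against 16.0 M to 18.1 M counts, which overlap), and the sum of 9 hepatocyte markers was higher in CM (21.0 to 25.2 against 15.8 to 20.8 CPM). That sum is mostly Foxa2 and Apob, while Alb and Ttr had 0 counts over the 16 HL-1 libraries and Hnf4a 1 count.

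Tsc22d3 stood at 31.7, 35.3, 30.7 and 36.2 CPM in control medium and 36.3, 32.8, 37.3 and 33.0 CPM in CM at 28 h, which overlap. Its difference of 4.25% (95% interval -5.38 to 14.9%) was not called, and neither were those of Errfi1 (1.11%, -5.05 to 7.66%), Klf9 (7.84%, -1.96 to 18.6%), Dusp1 (-5.82%, -18.5 to 8.86%) and Mfsd2a (8.88%, -8.97 to 30.2%). Whether the CM effect itself differed between the times was tested directly. None of the 8 genes was called by edgeR (0 of 8, beside 0.277% of all tested genes), while 3 had an unadjusted p under 0.05: Errfi1 (0.25 ± 0.06, adjusted p = 0.128), Sgk1 (-0.22 ± 0.06, adjusted p = 0.150) and Tsc22d3 (-0.25 ± 0.10, adjusted p = 0.508). DESeq2 called 1 of them, Errfi1 (adjusted p = 0.0161), and limma-voom called 0. In edgeR Errfi1 was called without control 16 h replicate 1 (adjusted p = 0.0152) or CM 28 h replicate 2 (adjusted p = 0.0417). Without control 16 h replicate 3 no member was called, with 0.23 for Errfi1 (adjusted p = 0.154), -0.16 for Sgk1 (0.398) and -0.20 for Tsc22d3 (0.699). A call at 16 h and not at 28 h is therefore not shown by edgeR to be a difference between the times.

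**Figure D4:**
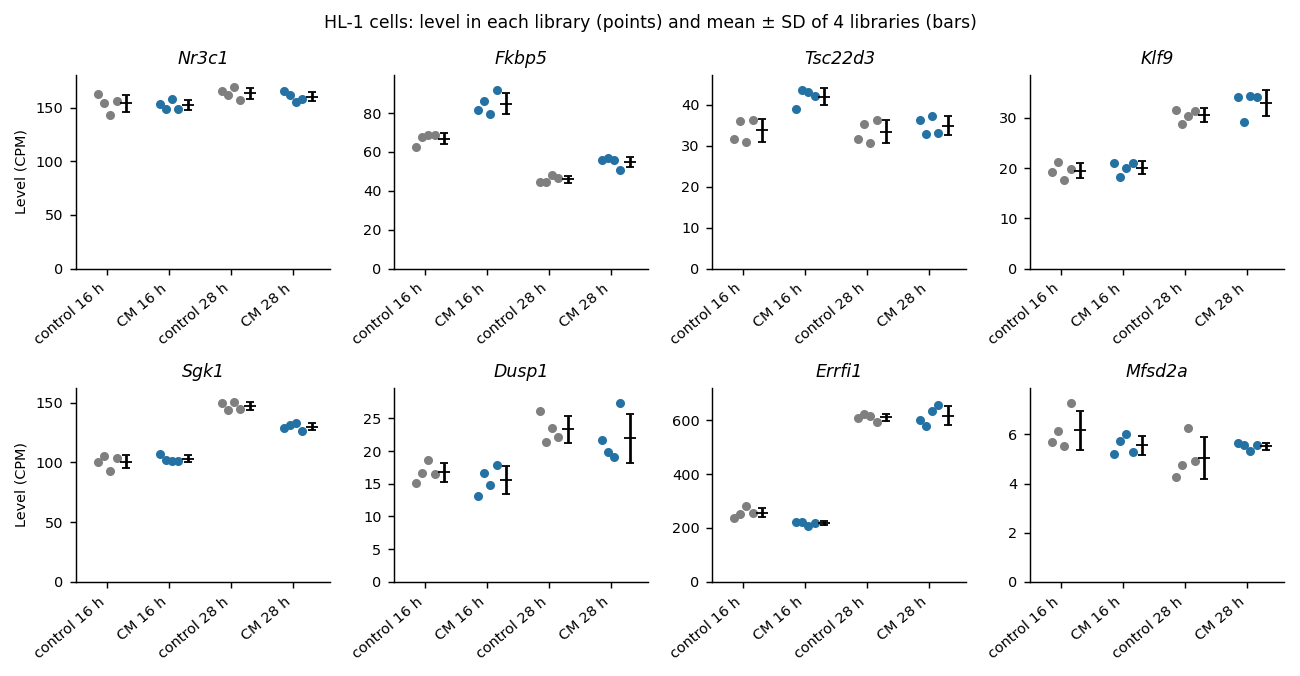
Level in CPM (vertical axes, from 0) of the 8 tested genes in the 16 HL-1 libraries, with points for libraries and bars for the mean ± SD of 4. Fkbp5 is higher in CM at both times, Tsc22d3 is higher in CM at 16 h and overlaps at 28 h, and Errfi1 rises from 207 to 280.0 CPM at 16 h to 577 to 657 CPM at 28 h in both media.

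The same genes were then compared between the times in HL-1. In control medium 5 of 8 were called between 28 h and 16 h, where 62.8% of all tested genes were called, 31.5% higher and 31.3% lower at 28 h. Errfi1, the EGF receptor inhibitor, rose from 256 ± 17.5 to 610.5 ± 12.8 CPM, a log2 fold change of 1.25 ± 0.05 (adjusted p = 9.50e-18, edgeR). Klf9 rose by 0.65 ± 0.07 (19.5 ± 1.51 to 30.5 ± 1.34 CPM), Sgk1 by 0.55 ± 0.04 and Dusp1 by 0.48 ± 0.11 (adjusted p = 0.000312, edgeR). Fkbp5 fell by 0.54 ± 0.05, from 66.9 ± 2.87 to 45.8 ± 1.76 CPM (adjusted p = 1.90e-09, edgeR). Nr3c1 (0.09 ± 0.04, adjusted p = 0.0633), Mfsd2a (-0.28 ± 0.13, adjusted p = 0.0536) and Tsc22d3 (-0.01 ± 0.07, adjusted p = 0.884) were not called by edgeR. Nr3c1 was called without control 16 h replicate 1 or control 28 h replicate 4, and Mfsd2a without control replicate 1 or 3 at 16 h or 3 at 28 h (adjusted p from 0.00745 to 0.0420). Without control 16 h replicate 3 the same 5 genes and Mfsd2a were called, with log2 fold changes of 1.28 for Errfi1, 0.59 for Klf9, 0.50 for Sgk1, 0.52 for Dusp1, -0.55 for Fkbp5 and -0.34 for Mfsd2a. Marker sums moved over the same interval without overlap. The cardiomyocyte sum was 904 to 959 CPM at 16 h and 1152 to 1206 CPM at 28 h, and the fibroblast sum 7567 to 8842 CPM and 9467 to 9998 CPM. In CM both sums were likewise higher at 28 h without overlap. Their part in the time differences was not tested.

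In CM the calls between the times numbered 6 of 8, beside 65.4% of all tested genes, 32.6% higher and 32.9% lower. Errfi1 rose 2.84-fold, from 218 ± 7.33 to 617 ± 35.2 CPM. Klf9 rose by 0.72 ± 0.07 on the log2 scale, Dusp1 by 0.49 ± 0.10 and Sgk1 by 0.33 ± 0.04. Fkbp5 fell by 0.63 ± 0.05 and Tsc22d3 by 0.27 ± 0.07 (adjusted p = 0.000942, edgeR). Nr3c1 (0.07 ± 0.04, adjusted p = 0.113, and 0.0461 without CM 16 h replicate 3) and Mfsd2a (-0.01 ± 0.12, adjusted p = 0.947) were not called by edgeR. The order of the groups for Fkbp5 was CM 16 h, control 16 h, CM 28 h and control 28 h, each range apart from the next. For Sgk1 it was control 28 h, CM 28 h, then both 16 h groups, which overlapped. For Errfi1 both 28 h groups overlapped at the top, followed by control 16 h and CM 16 h, which were apart.

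Zbtb16 and Fam107a were under the low-count filter in HL-1. Zbtb16 had 5 counts in control medium and 4 in CM at 16 h, and 0 in both groups at 28 h. An exact two-sided permutation test of CM against control medium at 16 h gave p = 0.83, where 0.0286 is the smallest p that 4 against 4 libraries allow. Fam107a had 0 counts in both groups at 16 h, 4 counts in control medium at 28 h and 10 counts in CM at 28 h. The media did not differ at 28 h beyond their spread (p = 0.257, exact permutation test). CM cells at 28 h were at least 3.43-fold above the floor of 3 counts over the CM 16 h group (p = 0.0286, exact permutation test, the smallest possible). The rise of Zbtb16 seen in AML12 DEX cells had no counterpart detectable at this depth in HL-1.

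Levels can be set against each other between genes only per length, here as RPKM (CPM per kilobase of exon in GENCODE M21). In AML12 controls at 17 h the receptor had the highest level of the 10, at 24.1 RPKM, above Sgk1 (11.8), Fkbp5 (11.1) and Klf9 (9.41 RPKM). In DEX cells at 17 h Sgk1 (58.5 RPKM), Fkbp5 (38.0), Tsc22d3 (27.3) and Klf9 (22.2 RPKM) were all above Nr3c1 (20.0 RPKM), and Dusp1 was level with it (20.5 RPKM). In HL-1 the highest was Errfi1, from 60.8 RPKM in CM at 16 h to 172 RPKM in CM at 28 h, and Nr3c1 lay between 19.9 and 21.3 RPKM. The lines are in separate tables with different gene sets, and the annotation behind each is not known, so levels across them are given side by side and were not tested. Errfi1 had 6.16 to 9.94 RPKM in the AML12 groups and Nr3c1 20.0 to 26.3 RPKM. Mfsd2a had 0.214 to 1.01 RPKM in AML12 and 2.24 to 2.74 RPKM in HL-1.

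**Figure D5:**
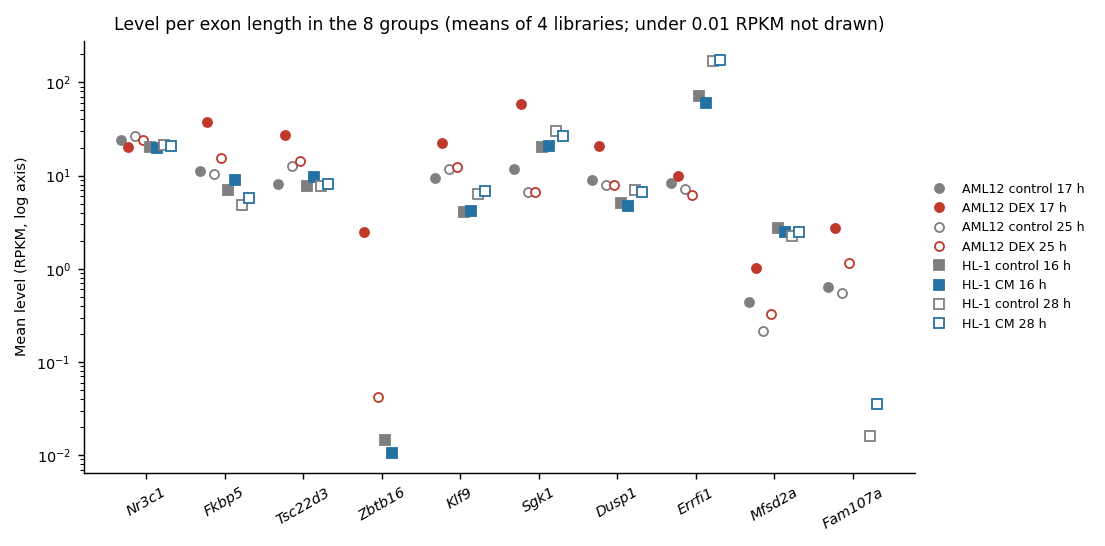
Mean level in RPKM (vertical log axis, means of 4 libraries) of the 10 genes in the 8 groups, with circles for AML12, squares for HL-1, filled marks for the earlier and open marks for the later time, and group means under 0.01 RPKM not drawn. Nr3c1 stays between 19.9 and 26.3 RPKM in every group, while Errfi1 in HL-1 and Sgk1 in AML12 DEX cells at 17 h stand highest among the targets.

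The machinery around the receptor was described by fixed lists, as counts and medians beside all tested genes. List results include the libraries that stood apart, DEX replicate 2 at 17 h in AML12 and control replicate 3 at 16 h in HL-1. How far the list results rest on either library was not tested. Of 9 chaperones and transport factors that hold or move the receptor, 2 were higher and 2 lower in AML12 DEX cells at 17 h, a share near the 38.4% called among all tested genes, and their median log2 fold change was 0.01 against 0.00. The inducible Hsp90aa1 rose by 0.45 ± 0.04 on the log2 scale (adjusted p = 8.38e-09, edgeR) and the ubiquitin ligase Stub1 by 0.23 ± 0.06, while the constitutive Hsp90ab1 (-0.13 ± 0.03) and the Hsp70 cofactor Bag1 (-0.41 ± 0.04) were lower. At 25 h 1 of the 9 was called, beside 11.7% of all tested genes: Bag1 (-0.15 ± 0.04, adjusted p = 0.00754, edgeR). Of 12 coactivators and corepressors 5 were higher and 0 lower at 17 h, beside 20.5% and 17.9% of all tested genes, so the total called was near that of all genes. The smallest p belonged to Ncoa3 (0.23 ± 0.05), Nrip1 (0.21 ± 0.06), Med14 (0.20 ± 0.06) and Smarca4 (0.14 ± 0.05). Their median log2 fold change was 0.13, against 0.00 for all tested genes. At 25 h 1 of 12 was called, beside 11.7% of all tested genes: the corepressor Nrip1 (0.18, adjusted p = 0.0491, edgeR).

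Genes that handle steroids gave 7 tested members in each line. In AML12 at 17 h 2 of them were higher and 2 lower in DEX cells, where 38.4% of all tested genes were called. In AML12 DEX cells at 17 h H6pd, which supplies the cofactor of Hsd11b1, rose by 0.77 ± 0.04 (231 ± 5.49 to 394 ± 23.5 CPM, adjusted p = 2.40e-13, edgeR), and the reductase Srd5a1 rose by 0.46 ± 0.09. The reactivating enzyme Hsd11b1 (-1.39 ± 0.45, adjusted p = 0.0158) and the inactivating Hsd11b2 (-0.91 ± 0.34, adjusted p = 0.0374) were lower in edgeR. Both Hsd11b1 and Hsd11b2 averaged under 1 CPM in all AML12 groups, so their changes rest on few counts. At 25 h 1 of 7 was called, a share near the 11.7% of all tested genes: the steroid exporter Abcb1a (0.43 ± 0.13, adjusted p = 0.0270, edgeR). Nr3c2, the mineralocorticoid receptor that also binds glucocorticoids, averaged 34.5 to 37.0 CPM in AML12 and 3.47 to 3.64 CPM in HL-1 and was not called in any of the 10 comparisons.

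Of 23 other genes known to respond to glucocorticoids that were tested in AML12, 16 were higher and 3 lower in DEX cells at 17 h, where 20.5% of all tested genes were higher and 17.9% lower. Their median log2 fold change was 0.38 against 0.00. The clock gene Per1 (1.65 ± 0.07), the AMP deaminase Ampd3 (1.86 ± 0.05), Crispld2 (3.66 ± 0.24) and the plasma protein gene Orm1 (3.67 ± 0.18) had the smallest p. Orm1 has close paralogs whose reads may be split with it. Crispld2 stood at 0.228 to 0.523 CPM in 17 h controls and 0.337 to 0.694 CPM in 25 h controls. It passed the low-count filter only through DEX cells (3.74 to 5.31 CPM at 17 h), so its calls between DEX and control cells are not independent of that filter. At 25 h 5 were higher and 3 lower, where 6.79% of all tested genes were higher and 4.96% lower, with a median of 0.01 against 0.00. Crispld2 (1.70 ± 0.27) and Orm1 (0.91 ± 0.21) were still higher, and Lcn2 (-0.62 ± 0.07) and the angiotensinogen gene Agt (-1.18 ± 0.14) were lower. The difference of the DEX effects between the times was called below 0 for 15 of the 23 and above 0 for 2, where 8.27% and 7.91% of all tested genes were, with a median of -0.59 against 0.01.

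Between the media in HL-1, calls among the listed genes stand beside 2.03% of all tested genes at 16 h and 1.92% at 28 h. At 16 h edgeR called 0 of 9 chaperones and 0 of 12 coregulators, and 0 of either list had an unadjusted p under 0.05, as also at 28 h. No other tool was run on these lists. Of 7 steroid genes H6pd was higher (0.20 ± 0.05, adjusted p = 0.0498) and Abcb1a lower (-0.33 ± 0.06, adjusted p = 0.00372, edgeR). Of 20 other glucocorticoid-responsive genes 3 were higher in CM at 16 h: Per1 (0.41 ± 0.09, adjusted p = 0.0110), the kinase gene Pdk4 (0.28 ± 0.06, adjusted p = 0.00583) and the iron-carrier gene Lcn2 (3.20 ± 0.41, adjusted p = 2.41e-05), all in edgeR. Lcn2 went from 0.201 ± 0.191 to 1.90 ± 0.617 CPM. At 28 h 1 of the 20 was higher in CM, Pdk4 (0.24 ± 0.05), and 3 were lower, Angptl4 (-0.30 ± 0.07), Anxa1 (-0.16 ± 0.04) and Agt (-0.85 ± 0.19). The CM effect on Lcn2 differed between the times by -2.99 ± 0.53 (adjusted p = 0.00464, edgeR).

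Between 28 h and 16 h in HL-1 control medium, all 9 receptor chaperones were lower, where 31.3% of all tested genes were. The largest changes were in Ppid (-0.92 ± 0.05), Hspa8 (-0.90 ± 0.04), Fkbp4 (-0.80 ± 0.05) and Ptges3 (-0.58 ± 0.04), which together with Hsp90 keep the receptor ready to bind hormone. The median of the list was -0.47 against 0.00 for all tested genes. In CM 8 of 9 were lower with a median of -0.53, where 32.9% of all tested genes were lower. Fkbp5, which competes with Fkbp4 for the same place on Hsp90, was lower as well, as given above. Of the 20 other glucocorticoid-responsive genes 15 were higher and 0 lower at 28 h in control medium, where 31.5% and 31.3% of all tested genes were. Among the 15 were the lipid phosphatase Lpin1 (2.45 ± 0.07), Tgm2 (1.85 ± 0.09), the metallothionein Mt1 (1.63 ± 0.07) and Ampd3 (1.28 ± 0.05). In CM 13 of the 20 were higher and 1 lower, where 32.6% and 32.9% of all tested genes were.

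The genes whose levels ran closest to the members over the 16 libraries of a line are given as a description, since the libraries share their groups and scaling. In AML12 the closest to Fkbp5 were Krt20 (Pearson r = 0.994), Vars (0.994) and Gcnt3 (0.992), on log2 CPM. The closest to Tsc22d3 were Ampd3 (0.995), Per1 (0.992) and Adam12 (0.989), and the closest to Nr3c1 were Ppp4r2 (0.976), Nfatc4 (0.968) and Psd3 (0.966). In HL-1 they were Marchf5 (0.982), Acta2 (0.971) and Igf2bp1 (0.962) for Fkbp5. For Tsc22d3 they were Anxa8 (0.845), Ccn2 (0.801) and Diras2 (0.790), and for Nr3c1 Itch (0.896), Btbd7 (0.888) and Atl3 (0.886).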

How the data were processed

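The authors deposited 2 tables of counts per gene, whole numbers that were not normalized, 1 per cell line. Per the submitters' processing notes, the builds were mm10 and GRCm38 and the tools FastQC 0.11.8 and STAR. Not given in the sources used here are the program that counted the reads, whether it used strand, and its annotation release. RNA was taken with TRIzol and libraries made with NEBNext Ultra II reagents, per the labels' protocols. The HL-1 table heads the CM columns with DEX, and the labels' descriptions tie them to the CM titles. No per-sample column was left unmapped (0).

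Each line was fitted alone, with 1 mean per group over its 16 libraries, in edgeR 4.0.16 (R 4.3.3, glmQLFit and glmQLFTest). Genes kept by filterByExpr were tested (14114 in AML12, 14450 in HL-1), with TMM scaling and Benjamini-Hochberg adjustment over all of them at 0.05. Each SE was taken as the absolute log2 fold change over the square root of F. Genes under the filter had an exact permutation test. Bounds use a floor of 3 counts over a group and cover counting error only. Lengths and positions are from GENCODE M21, promoters from RefSeq. The fitting script was also run on simulated counts, and the outcome is not given here.

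The members, gene lists and tests were chosen with earlier results of these data known. Named genes are all 10 members, up to 4 called genes per list and comparison with the smallest p, and the 3 closest genes by correlation. A selection of these is printed. Alternatives were RLE size factors, total counts, no filter, DESeq2 1.42.0, limma-voom (limma 3.58.1), a replicate block, a fit of only the libraries compared, and leaving out each library.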

Additional observations from a re-analysis of the deposited data

Results flagged for a closer look

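Among 74 groups of 4 libraries in which a member had counts, 5 held a library far from the other 3, and chance gives about 1 in 20 groups. Fkbp5 in AML12 DEX cells at 17 h was lowest in replicate 2, at 314 CPM beside 374 to 375 CPM. In the same library Errfi1 was highest, at 39.1 CPM beside 33.9 to 34.8 CPM. Over all genes, too, it was the library that lay apart from its group. Mfsd2a in AML12 DEX cells at 25 h stood at 1.10 CPM in replicate 4, beside 0.587 to 0.635 CPM. In HL-1, Klf9 in CM at 28 h was lowest in replicate 2, at 29.1 CPM beside 34.1 to 34.4 CPM. Sgk1 in CM at 16 h was highest in replicate 1, at 107 CPM beside 101 to 102 CPM.

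The DEX effect in AML12 differed between 25 h and 17 h, by edgeR's test of the difference itself, for 7 genes. On the log2 scale it was -2.32 for Sgk1, -1.53 for Tsc22d3, -1.21 for Fkbp5, -1.17 for Dusp1, -1.14 for Klf9, -1.02 for Fam107a and -0.48 for Errfi1. The effect on Errfi1 was above 0 at 17 h in all 4 DEX libraries set against the controls and below 0 at 25 h.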

How the results depend on the processing

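The 10 members kept their calls at 17 h in AML12 under every alternative tried, and those of Fkbp5 in CM held at both times. With total counts as the only scaling the sign of Sgk1 at 25 h turned (0.00438), and for Mfsd2a between 28 h and 16 h in CM it turned with RLE size factors (0.000471) and DESeq2 (0.000468). For the difference of the CM effects, where edgeR called 0 members and 40 genes, leaving the low-count filter out gave 1 member and 97 genes and DESeq2 gave 1 and 68. Leaving out 1 library at a time gave 0 to 1 members there. It gave 1 to 2 members and 170 to 334 genes for CM at 28 h, where all libraries gave 278, with 179 without control replicate 1 and 170 without CM replicate 3.

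Log2 fold changes near 0 also changed sign without 1 library. Their ranges at DEX 25 h were -0.0671 to 0.0293 for Sgk1 and -0.0404 to 0.0401 for Dusp1. For CM at 16 h they were -0.0583 to 0.00680 for Nr3c1, -0.0107 to 0.0774 for Klf9 and -0.00663 to 0.0529 for Sgk1. At 28 h Errfi1 ran from -0.0156 to 0.0460. For the difference of CM effects they were -0.0326 to 0.0406 for Nr3c1 and -0.110 to 0.102 for Dusp1. Over time they were -0.0633 to 0.0269 for Tsc22d3 in control medium and -0.0326 to 0.0400 for Mfsd2a in CM.

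Calls of 2 members at DEX 25 h were the least firm. Nr3c1 missed the threshold with total counts and without the filter, and Errfi1 with total counts, limma-voom and the replicate block (-0.21, adjusted p = 0.0526). Other calls moved as well. Nr3c1 between the times in AML12 controls was lost with total counts and without the filter. The difference of its DEX effects was called with total counts and DESeq2. Fkbp5 between the times in AML12 controls was called with total counts and with only the libraries compared, and Mfsd2a between the times in HL-1 control medium with total counts. With the replicate number as a block no other call of a member changed. Any pairing of the libraries by number was weak: deviations of same-numbered libraries correlated at -0.102 to 0.108, and in no pair of groups were all 4 over 0.1. In AML12 at 25 h each control library correlated best with the DEX library of its own number (0.0284 to 0.0759). That is a hint of pairing from the data and not from the design, and it concerns the comparison in which the block removed the Errfi1 call. In the fit of only the 25 h AML12 libraries Zbtb16 and Mfsd2a were under the filter. The differences of effects could not be fitted from only the libraries of 1 comparison. Changes of the low members Mfsd2a, Fam107a and Zbtb16 are limited by depth. The causes of these shifts were not tested.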
